A study of Homo sapiens with 6 samples.

Results

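R-loop peaks were described at 10 genes that encode the main actins and tubulins of a cultured human cell, ACTB, ACTG1, TUBA1A, TUBA1B, TUBA1C, TUBB, TUBB2A, TUBB2B, TUBB4B and TUBG1, out of 19819 protein-coding genes. The genes were taken by name from the GENCODE annotation of GRCh37 (release 44, mapped back to this build), and a peak was counted for a gene where it overlapped the gene's record or the 5000 bp on either side. By this rule 20 of the 10231 peaks of the untreated list and 18 of the 11085 peaks of the treated list belonged to these genes. The peaks came from spKAS-seq, a strand-specific sequencing of single-stranded DNA captured through N3-kethoxal, in wild-type HEK293T cells, a human embryonic kidney line. The treated cells had been given 10 μM N2-heptynyl-dG, a guanine nucleoside that carries an alkyne chain on its N2 position, for 3 h. The untreated cells had not, and the cells of both conditions were then labelled with 5 mM N3-kethoxal for 10 min. There were 2 spKAS-seq samples of each condition and 2 inputs of untreated cells, but each condition is described here from 1 list of intervals that gave the position and strand of every peak without its height. The signal of the single samples was not analysed here, so no spread between replicates, depth behind a peak or test of a difference between the conditions is given, and how far a peak found in 1 list alone lay from the threshold of the other is unknown.

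An R-loop forms when RNA pairs with its DNA template and leaves the other DNA strand unpaired. N3-kethoxal reacts with unpaired guanines, so that the labelled strand can be captured and its orientation read, and a peak on the coding strand of a gene is called sense here. R-loops are best known at the starts of transcribed genes, where newly made G-rich RNA can invade the duplex, and beyond polyadenylation sites, where the polymerase slows before it leaves the template. ACTB and ACTG1 encode the cytoplasmic β- and γ-actins that polymerise into microfilaments. TUBA1A, TUBA1B and TUBA1C encode α-tubulins and TUBB, TUBB2A, TUBB2B and TUBB4B encode β-tubulins, which pair as the building block of microtubules, whereas the γ-tubulin encoded by TUBG1 nucleates microtubules at the centrosome. TUBA1A and TUBB2B are best known from neurons. These genes are short, with a median record length of 6851 bp against 27632 bp over all protein-coding genes. They occur as families of close copies with many processed pseudogenes.

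The stretches of peak that were richest in G over C on the peak strand are shown for the genes the results turn on, to let the sequence at a start be set against the sequence beyond an end. Each is the 100-base window of a peak with the largest excess of G over C among windows outside annotated untranslated exons, taken from GRCh37 and written 5′ to 3′ on the minus strand for ACTB, ACTG1, TUBA1B and TUBB2B and on the plus strand for TUBB4B and TUBB. Capitals mark runs of at least 3 G. The first 5 lie in the first part of the genes.
ACTB, intron 2, chr7:5569067-5569166, minus strand: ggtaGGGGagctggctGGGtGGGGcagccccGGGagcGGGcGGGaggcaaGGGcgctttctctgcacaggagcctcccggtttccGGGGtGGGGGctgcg
ACTG1, intron 2 and exon 3, chr17:79479140-79479239, minus strand: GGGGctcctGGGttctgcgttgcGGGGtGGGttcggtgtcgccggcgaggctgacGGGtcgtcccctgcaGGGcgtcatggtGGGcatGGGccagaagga
TUBA1B, intron 1, chr12:49524871-49524970, minus strand: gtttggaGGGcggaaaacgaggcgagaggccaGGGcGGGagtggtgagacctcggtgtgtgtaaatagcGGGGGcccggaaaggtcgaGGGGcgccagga
TUBB4B, exon 1 and intron 1, chr9:140135861-140135960, plus strand: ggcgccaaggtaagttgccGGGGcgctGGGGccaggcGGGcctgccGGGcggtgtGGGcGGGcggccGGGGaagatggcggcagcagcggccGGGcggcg
TUBB2B, intron 1, chr6:3227622-3227721, minus strand: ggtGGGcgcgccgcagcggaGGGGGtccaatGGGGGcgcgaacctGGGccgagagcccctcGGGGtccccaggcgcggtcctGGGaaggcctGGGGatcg

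The next 4 lie beyond the ends of the genes and held from 1 to 7 G runs.
ACTB, downstream, chr7:5564999-5565098, minus strand: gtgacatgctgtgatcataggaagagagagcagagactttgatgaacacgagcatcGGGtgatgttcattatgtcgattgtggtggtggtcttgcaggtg
ACTG1, downstream, chr17:79476177-79476276, minus strand: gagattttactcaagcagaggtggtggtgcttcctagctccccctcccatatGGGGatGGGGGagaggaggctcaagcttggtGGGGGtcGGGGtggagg
TUBB, downstream, chr6:30694177-30694276, plus strand: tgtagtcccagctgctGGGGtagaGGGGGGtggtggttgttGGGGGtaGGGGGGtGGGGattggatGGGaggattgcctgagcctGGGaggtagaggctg
TUBB2B, downstream, chr6:3222501-3222600, minus strand: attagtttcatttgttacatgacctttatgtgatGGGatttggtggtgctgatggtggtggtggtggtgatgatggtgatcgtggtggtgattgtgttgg
The window of ACTB intron 2 held 9 G runs, whereas the window beyond its end held 1 in a stretch of GT-rich sequence. The TUBB window, with 54 G against 10 C, had the largest excess of G among the windows of the member peaks. The TUBB2B window beyond the gene held 39 G and 6 C with 1 G run. Start windows that are not shown held fewer runs than those printed, 4 at TUBA1A, 3 at TUBA1C and 4 at TUBG1. The downstream windows of TUBA1B, TUBA1C and TUBG1, also not shown, held 4 each. Numbers of G runs at starts and beyond ends thus overlapped between genes.

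Most of these genes carried R-loop peaks in both conditions. In the untreated list 9 of the 10 genes had a peak in their window and in the treated list 8, where 45.8% and 48.1% of all protein-coding genes did. TUBB2A had none in either list and TUBB2B had peaks in the untreated list only. Of the 20 untreated peaks, 16 (80.0%) met a treated peak over at least 1 bp, and all 18 treated peaks met an untreated one. Over the whole lists these shares were 74.8% and 69.5%. The member peaks were wider, with medians of 1250 and 1500 bp against 750 bp in each whole list. Wider peaks can meet another more easily, and the part of width in these shares was not tested. No treated peak of these genes lay away from an untreated one, and 4 peaks were listed in untreated cells alone. These were an upstream peak of ACTB, a peak in TUBA1A intron 1 and both peaks of TUBB2B.

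**Figure D1:**
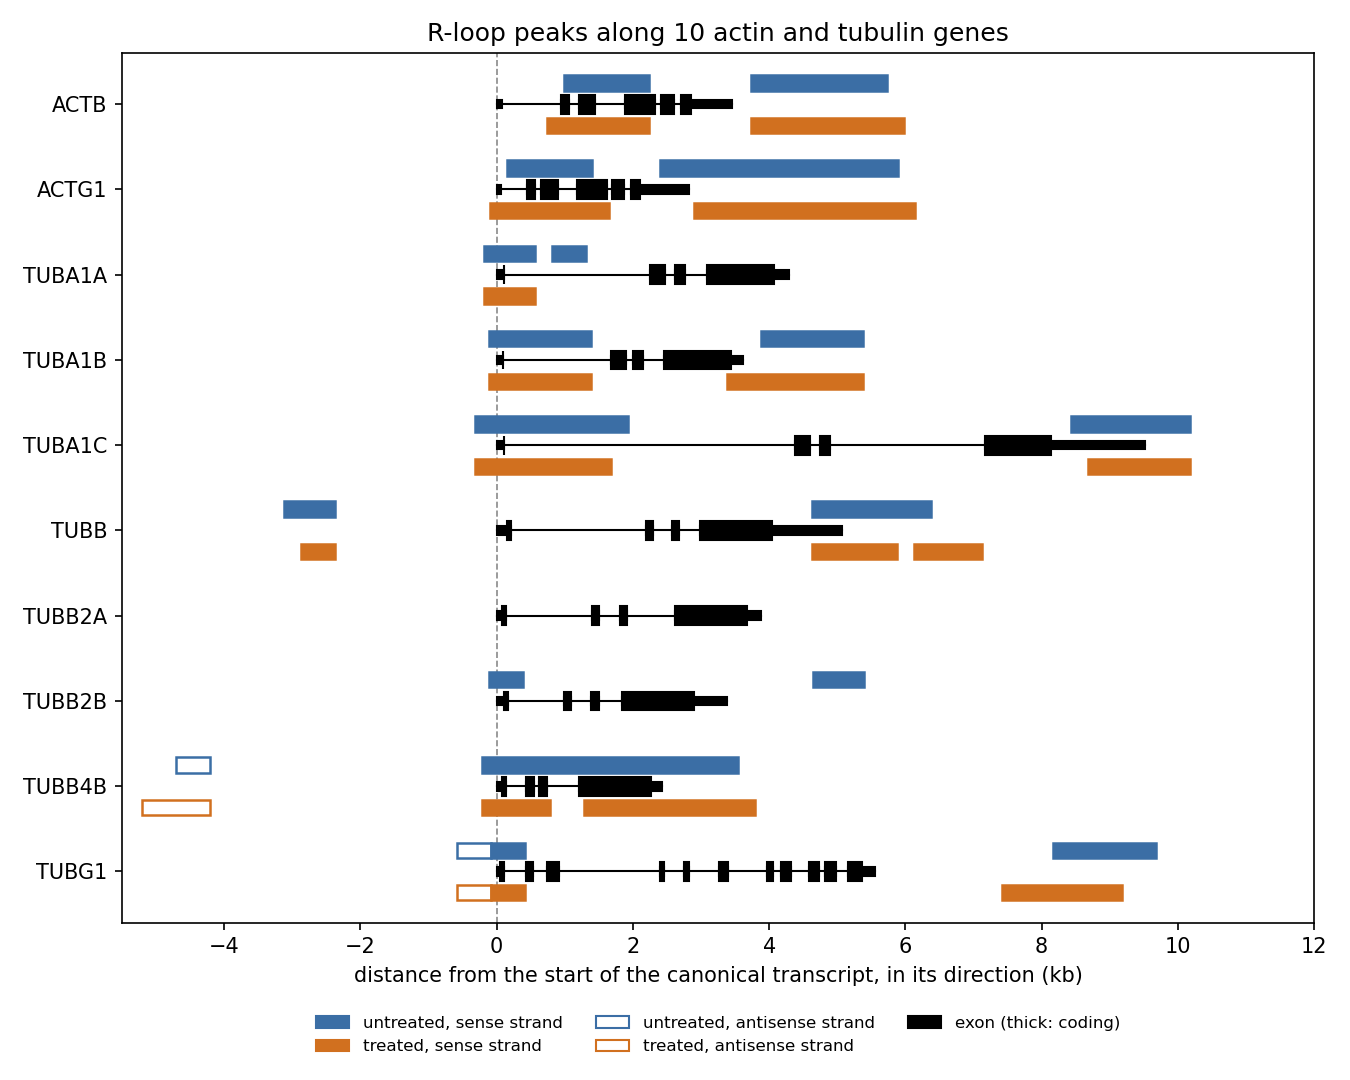
Positions of R-loop peaks along the 10 genes, with distance from the start of the canonical transcript in kb on the horizontal axis and 1 row per gene. Blue bars above each gene model are untreated peaks, orange bars below it treated peaks, open bars lie on the antisense strand and black boxes are exons. An untreated ACTB peak 24394 bp upstream of the start and the peaks of TUBA1A that fall in the window of TUBA1C lie outside the axis. Filled bars sit near the start and past the end of most genes, and TUBB2A has none.

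Most peaks of these genes lay on the strand of a member. In the untreated list 18 of the 20 peaks, and in the treated list 16 of the 18, were sense to a member. The same share over the windows of all protein-coding genes was not computed. The 2 peaks of each list that were only antisense lay by a neighbouring gene. At TUBG1, the minus-strand peak at chr17:40761123-40761622 covered the start of RETREG3, an endoplasmic reticulum membrane protein gene that begins 309 bp from TUBG1 and runs the other way. At TUBB4B, the minus-strand peak ended 4213 bp before the gene and in the treated list reached the end of SLC34A3, a phosphate transporter gene on the plus strand. Antisense peaks of TUBA1C were the TUBA1A peaks, which fell in its window because the TUBA1C record begins 76346 bp before its canonical start and overlaps the TUBA1A record. Antisense noncoding genes of the same places, TUBA1B-AS1 at TUBA1A and TUBA1B and ENSG00000258232 at TUBA1C, were overlapped by the sense peaks of the tubulins but run the other way.

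At the start of the canonical transcript, a peak with its midpoint within 1000 bp was found at 6 of the 10 genes in each list, 5 of them in both, against 25.3% and 27.9% of all protein-coding genes. With midpoints within 500 bp it was found at 3 genes in each list, and the share of all genes under this limit was not computed. All of the 6 genes had a sense peak there, in the list in which they were counted, against 17.7% and 19.8% of all genes. Because peaks of the actins and of TUBB4B extended far into the gene, a wider window from 1000 bp upstream to 2000 bp downstream of the start was also used, chosen after the peaks had been seen. It held a sense peak at 8 genes in untreated and 7 in treated cells, against 19.1% and 21% of all genes. The genes without one in either list were TUBB and TUBB2A, and TUBB2B lacked one in the treated list.

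Among the genes with a sense peak in this wider window, ACTB was the one whose first peak there began farthest past the start, and its midpoint lay outside the 1000 bp limit. In the untreated list this peak covered chr7:5568001-5569250, which is 982 to 2231 bp past the canonical start, with 675 bp in coding exons and 575 bp in introns. In the treated list it covered chr7:5568001-5569500 and began 732 bp past the start. The first exon and the promoter of ACTB were thus free of peaks in both lists. The peak of the γ-actin gene ACTG1 lay closer to its start, from 145 to 1394 bp past it at chr17:79478431-79479680 in the untreated list. In the treated list it was extended by 250 bp at either border and began 105 bp before the start, at chr17:79478181-79479930. Both actin peaks overlapped coding exons 2 to 4, and both were wider in the treated list, by 250 bp at ACTB and 500 bp at ACTG1. Peak widths in these lists came in steps of 250 bp, with few exceptions. The further ACTB peak that was listed in untreated cells alone was 750 bp wide, at chr7:5594251-5595000, and sense to the gene. It lay in the long first part of the ACTB record. Its midpoint was 1736 bp from the start of the noncoding gene ENSG00000272719, which runs the other way.

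The α-tubulin genes had their start peaks over the first intron. TUBA1A had a peak of 750 bp at chr12:49582296-49583045, from 182 bp before to 567 bp past the start, with identical borders in both lists. A peak of 500 bp in its first intron, at chr12:49581546-49582045, was listed in untreated cells alone and was separated from the start peak by 250 bp. TUBA1B had a peak of 1500 bp with identical borders in both lists, chr12:49523796-49525295, of which 1285 bp were intron. TUBA1C had a peak from 319 bp before the start that spanned 2250 bp in the untreated list, chr12:49658546-49660795, and 2000 bp in the treated list. Thus the start peaks of TUBA1A and TUBA1B did not move between the lists at all, and that of TUBA1C differed at its far border only.

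Among the β-tubulins the pattern at the start varied from gene to gene. TUBB4B carried a peak of 3750 bp over its whole length in the untreated list, from 212 bp before its start to 1117 bp past its end, at chr9:140135527-140139276. Only 6 of the 10231 untreated peaks, itself included, were at least this wide. In the treated list the same stretch was covered by a peak of 1000 bp and a peak of 2500 bp, with a gap of 500 bp between them, and the second reached 250 bp farther. The far part of both lists' peaks also overlapped the end of FAM166A, a gene on the opposite strand. TUBB had no peak at its canonical start. Its only peak near the 5′ side was at the beginning of the gene record, 2379 to 3128 bp before the canonical start in the untreated list, at chr6:30685001-30685750. There it covered the start of MDC1, a DNA damage response gene that runs the other way and begins 3071 bp from the canonical start of TUBB. The peak itself was on the plus strand of TUBB. In the treated list it was narrower, at chr6:30685251-30685750, and did not overlap MDC1. TUBB2B had a peak of 500 bp at its start in the untreated list, chr6:3227501-3228000, and none in the treated list. TUBG1, the γ-tubulin gene, had a peak of 500 bp at its start with identical borders in both lists, next to the RETREG3 peak on the opposite strand.

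Sense peaks beyond the end were listed at a larger share of these genes than of all genes. A peak with its midpoint within 1000 bp of the canonical end was found at 3 genes in untreated and 4 in treated cells, 3 of them in both, against 5.82% and 5.88% of all genes. Since several peaks began just past the end and ran on, the 5000 bp beyond the canonical end was also used, again chosen after the peaks had been seen. A sense peak overlapped it at 8 genes in the untreated list and 7 in the treated list, against 16.6% and 17% of all genes. The 7 of the treated list were all among the 8 of the untreated list, and the remaining gene was TUBB2B. TUBA1A and TUBB2A had no such peak in either list.

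Apart from the untreated peak over the whole of TUBB4B, ACTG1 had the widest of these peaks. In the untreated list it covered 3500 bp at chr17:79473931-79477430, from 433 bp before to 3066 bp past the canonical end, and 16 untreated peaks, itself included, were at least as wide. In the treated list it covered 3250 bp at chr17:79473681-79476930 and lay wholly past the end, from 67 to 3316 bp. The ACTB peak ran from 279 to 2278 bp past the end in the untreated list, at chr7:5564501-5566500, and to 2528 bp in the treated list. Both actin genes thus had peaks over the DNA beyond their ends that were longer than those over the genes.

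Among the α-tubulins, TUBA1B had a downstream peak of 1500 bp in the untreated list, from 270 to 1769 bp past its end. In the treated list it was 2000 bp wide and reached back over the last 230 bp of the gene. TUBA1C had a peak of 1750 bp that began in its last exon and ended 662 bp past the end, and it was 1500 bp wide in the treated list. These differences were 500 and 250 bp in opposite directions, that is 2 and 1 of the 250 bp steps in which peak widths came.

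Among the β- and γ-tubulin genes the lists differed at each of the following. At TUBB an untreated peak of 1750 bp, chr6:30692751-30694500, was matched by treated peaks of 1250 and 1000 bp that ended 2051 bp past the gene, against 1301 bp in the untreated list. The gap of 250 bp between the treated peaks held most of the G-rich TUBB window printed above. At TUBG1 the peak lay farther away than at any other member, 2617 to 4116 bp past the end in the untreated list, and 1867 to 3616 bp past it in the treated list. The overlap between these was 1000 bp. TUBB2B had a peak of 750 bp in the untreated list, 1261 to 2010 bp past its canonical end, and none in the treated list.

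By the midpoint rule, peaks within 1000 bp of the start and of the end of the same gene were found at 1 gene of the untreated list, TUBA1C, and at 3 of the treated list, TUBA1B, TUBA1C and TUBB4B. The share of all genes with both under this rule was not computed. In the wider windows chosen after the peaks had been seen, sense peaks at both the start and beyond the end were found at 7 genes in untreated and 6 in treated cells, against 5.9% and 6.43% of all protein-coding genes. Here a single peak could fill both windows, as the untreated peak over the whole of TUBB4B did. All genes were counted by the same rule, but the 2 windows lie closer together in short genes. The median record was 6851 bp for the members and 27632 bp for all genes, and the part of gene length in these counts was not tested. The 6 genes found in both lists were ACTB, ACTG1, TUBA1B, TUBA1C, TUBB4B and TUBG1. Their levels of transcription were not analysed here, so that its part in these counts was not tested. In the untreated list 7 of the 10 genes were under a sense peak 200 bp past the start, against 15.2% of all genes, and 6 of the 10 at 1000 bp, against 2.42%. In the treated list these were 6 of the 10, against 17.3%, and 4 of the 10, against 2.17%. At 500 bp past the end, 6 of the 10 genes were covered in each list, against 5.26% and 5.01% of all genes.

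**Figure D2:**
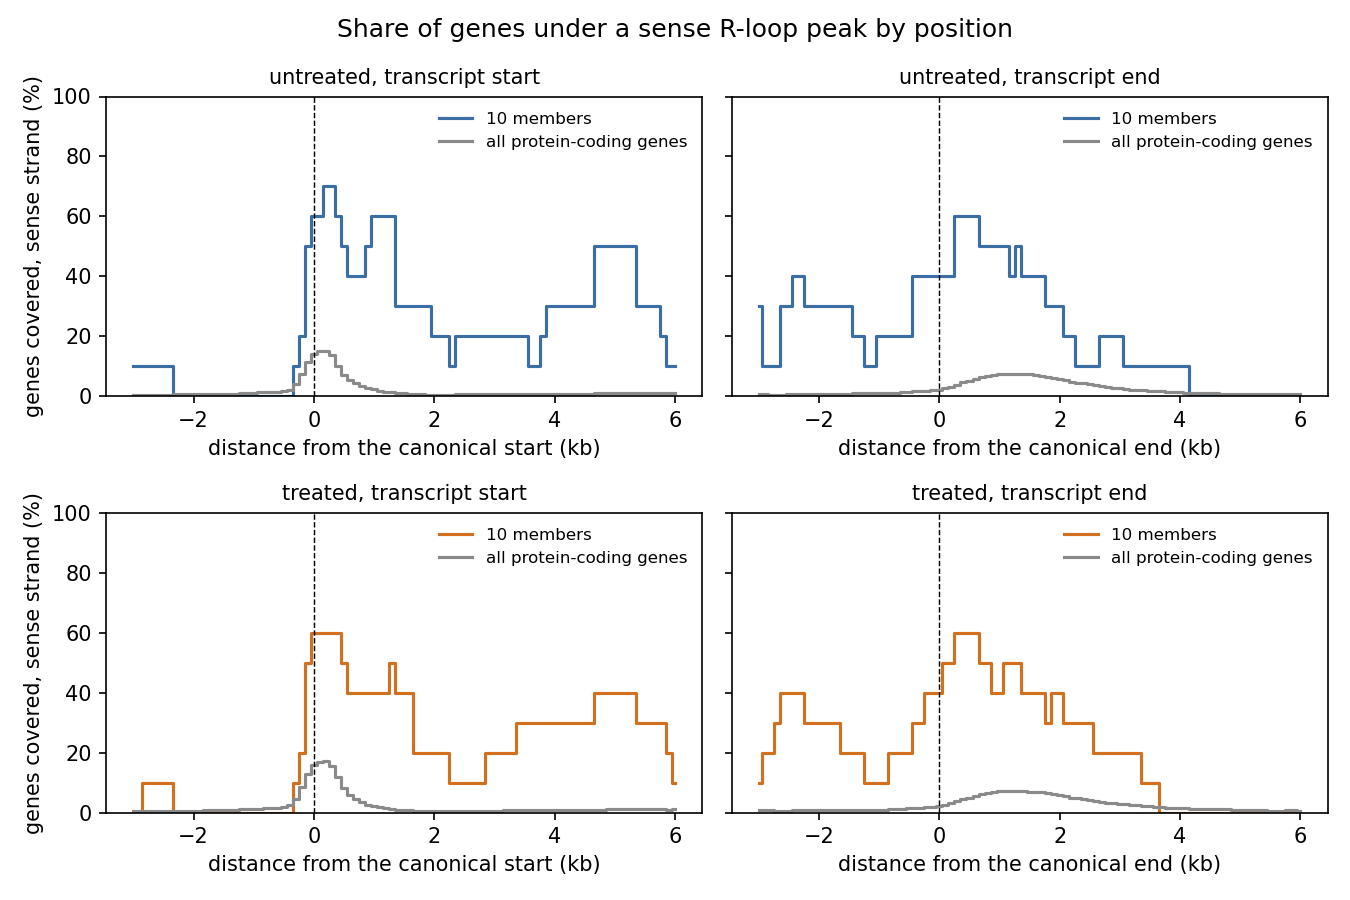
Percentage of genes whose sense strand lay under a peak, by distance in kb from the canonical start (left) and end (right), in the untreated list (above) and the treated list (below). Coloured lines are the 10 actin and tubulin genes, so that a step is 10.0%, and grey lines are all 19819 protein-coding genes. The coloured lines reach 70.0% near the start in the untreated list and 60.0% past the end in both lists.

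The total of sense peak was compared from 1000 bp before the start to 5000 bp past the end of each gene. ACTG1 had the most, 4750 bp in the untreated and 5000 bp in the treated list, and 16 and 15 of the 19819 genes, itself included, had at least as much. TUBA1C had 4000 and 3500 bp, the second of the untreated list, whereas ACTB was the second of the treated list. TUBB4B had 3750 and 3500 bp, ACTB 3250 and 3750 bp, and TUBA1B 3000 and 3500 bp. These 5 genes all had at least 3 times the 1000 bp that was the median, in each list, of the genes with any sense peak in this region. TUBG1 had 2000 and 2250 bp and TUBB 1750 and 2250 bp, whereas TUBA1A had 1250 and 750 bp, TUBB2B 1250 and 0 bp, and TUBB2A 0 bp in both lists. The treated value was larger at 5 genes, ACTB, ACTG1, TUBA1B, TUBB and TUBG1, and smaller at 4, TUBA1A, TUBA1C, TUBB2B and TUBB4B. With no replicate lists these differences could not be set against an error.

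**Figure D3:**
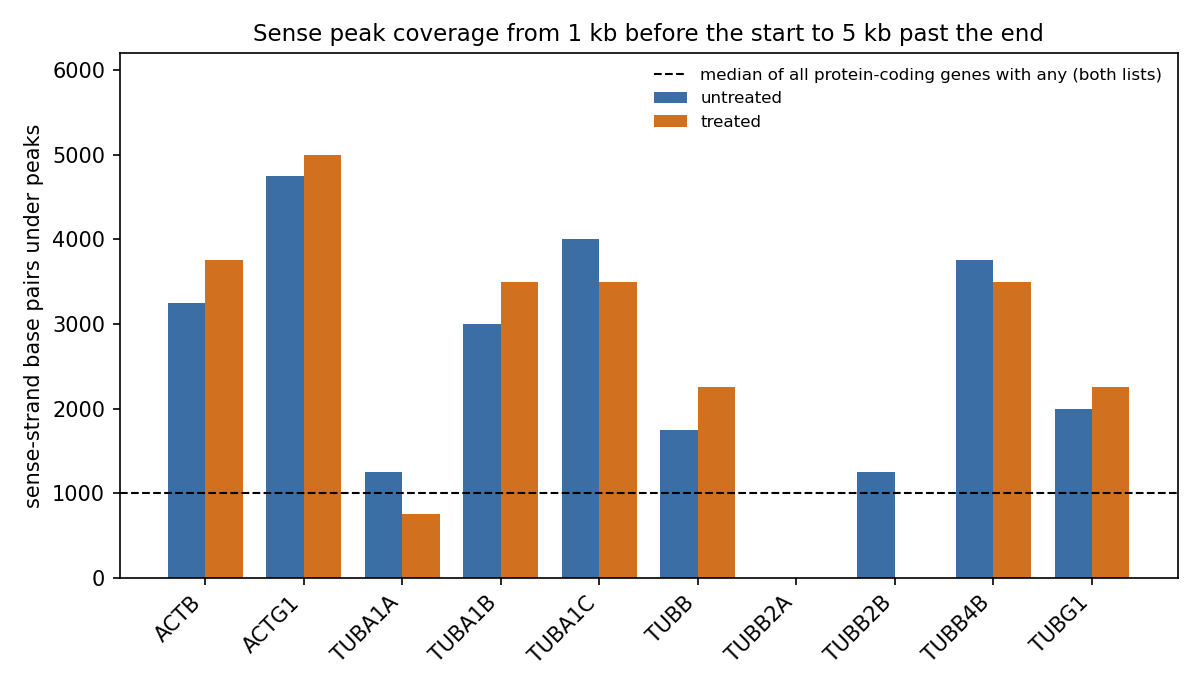
Base pairs under sense peaks from 1 kb before the canonical start to 5 kb past the canonical end, for each gene in the untreated (blue) and treated (orange) list. The dashed line at 1000 bp is the median of all protein-coding genes that had any. ACTG1 stands highest with 4750 and 5000 bp, and TUBB2A and the treated list at TUBB2B are at 0.

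Peaks of these genes were wide. Of the untreated peaks 9 of 20 and of the treated peaks 10 of 18 were at least 1500 bp, against 15.0% and 12.9% of the whole lists. The borders of 4 peaks were identical in both lists, those of the TUBA1A and TUBA1B starts and the facing pair of TUBG1 and RETREG3. Over the whole lists 32.2% of untreated peaks had identical borders in the treated list. In total 27500 bp of the windows lay under untreated and 26288 bp under treated peaks.

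The base composition differed between the start and the far side of these genes. Peaks in the wider start window of ACTB, ACTG1, TUBA1A, TUBA1B, TUBA1C, TUBB2B and TUBG1 had GC contents from 56.1% at TUBA1C to 70.8% at TUBB2B. The downstream peaks of ACTB, ACTG1, TUBA1B, TUBA1C, TUBB, TUBB2B and TUBG1 ranged from 44.7% at TUBA1B to 52.9% at ACTB, and these ranges did not overlap. The untreated peak in TUBA1A intron 1, left out of this range, had 48.4%. TUBB4B was apart, since its treated peak past the end, which also covers coding exons, held 59.7% GC. Over all member peaks the median was 58.2% and 58.9%, close to the 56.2% and 57.6% of the whole lists.

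GC skew, which is (G − C)/(G + C) read along the peak's own strand, was above 0 in 13 of 20 untreated and 10 of 18 treated peaks, against 49.2% and 43.9% of the whole lists. The highest was 0.14, at the untreated peak downstream of TUBA1B, and the TUBB2B peaks had 0.136 downstream and 0.102 at the start. The ACTB peaks in the wider start window were slightly below 0, with −0.049 and −0.043, although they contained the G-rich stretch of intron 2 shown above. A motif of 4 runs of at least 3 G separated by 1 to 7 bases was present in 8 of 20 and 6 of 18 peaks, against 18.2% and 19.3% of the whole lists. Wider peaks have more room for such a motif, and its part in this count was not tested. Peaks in the wider start window held it at ACTB, ACTG1, TUBB2B and TUBB4B and, at TUBA1A, in the peak over the start but not in the one in intron 1, and those of TUBA1B, TUBA1C and TUBG1 did not.

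Promoters were searched from 250 bp before to 50 bp past the canonical start on both strands. The CArG box, which is bound by serum response factor and reads CC, a run of A or T and GG, was found at ACTB and ACTG1 and at no other member, and in 1.21% of the 19819 promoters. The box (in capitals) is shown with its flanks because it set the actins apart from the tubulins.
ACTB, 62 bp upstream of the start, chr7:5570275-5570304, minus strand: ccgaaagttgCCTTTTATGGctcgagcggc
ACTG1, 94 bp upstream of the start, chr17:79479900-79479929, minus strand: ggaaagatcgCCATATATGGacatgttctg
The box of ACTG1 lay under its treated peak, which began 105 bp before the start, whereas that of ACTB lay under no peak in either list. The TATA box (TATAAA or TTTATA) was found at ACTB and TUBB2A and in 9.65% of promoters. The CCAAT box (CCAAT or ATTGG) was found at 8 members and in 36.0% of promoters, and the GC box (GGGCGG or CCGCCC) at 8 members and in 61.5%. A match is a description of letters and does not show that a factor was bound.

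TUBB2A and TUBB2B, neighbours on chromosome 6 that encode nearly the same β-tubulin, were the members without a peak in the treated list. Their coding sequences were 98.2% identical, but the 250 bp upstream of their starts were 49.5% identical in an alignment. The actin pair had 91.3% and 43.3%, and TUBA1A and TUBA1B had 97.2% and 49.1%. In each pair the coding part was thus more alike than the upstream part, and introns and untranslated exons were not compared. The distant pair TUBB and TUBG1 had 55.3% and 48.2%, so the upstream values of the close pairs were near that of a distant pair. The 150 bases before each start are shown on the minus strand with TATAAA and GC boxes in capitals, since TUBB2A had no peak in either list and TUBB2B had a start peak in the untreated list.
TUBB2A, chr6:3157779-3157928, minus strand: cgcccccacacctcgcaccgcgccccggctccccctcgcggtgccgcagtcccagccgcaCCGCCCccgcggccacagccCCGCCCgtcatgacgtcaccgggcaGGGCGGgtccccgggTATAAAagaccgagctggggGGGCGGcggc
TUBB2B, chr6:3227888-3228037, minus strand: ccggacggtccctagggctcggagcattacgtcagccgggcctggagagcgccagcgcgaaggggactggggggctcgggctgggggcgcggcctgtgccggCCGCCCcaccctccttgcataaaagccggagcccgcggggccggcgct
Their GC contents, 79.3% and 76.0%, were close. TUBB2A held TATAAA and 4 GC boxes, and TUBB2B 1 GC box.

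Reads from near-identical copies cannot be placed with certainty, so the share of 31-base words that occur elsewhere in the genome was computed. In the coding sequences it was highest for TUBB2A (87.1%), TUBB2B (86.3%) and TUBA1B (85.8%), and it was 43.3% for ACTB and 31.9% for ACTG1. Within the canonical transcript of TUBA1B, 1.93% of words under sense peaks were repeated and 54.3% of those outside them. TUBB2B had 7.56% under peaks and 34.8% outside, and TUBA1A 7.04% and 33.8%. ACTB showed a smaller difference, with 16.9% and 27.0%. TUBB2A, with no peak, had 49.0% over the whole transcript, but this share was not even along the gene. In the bin of 250 bp just past the start, TUBB2A and TUBB2B each had 10.8%, and in the next bin each had 0.0%. Bins farther into TUBB2A reached 100%. Why TUBB2A had no peak was not tested. Inside the transcript, sense peaks of ACTB, TUBA1A, TUBA1B and TUBB2B therefore lay over the less repeated parts. Whether peaks were lost over the repeated parts was not tested. Parts of peaks beyond the transcript were left out of these shares. Untreated sense peaks that reached beyond the end held from 0.0% repeated words at TUBG1 to 33.2% at TUBA1B.

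**Figure D4:**
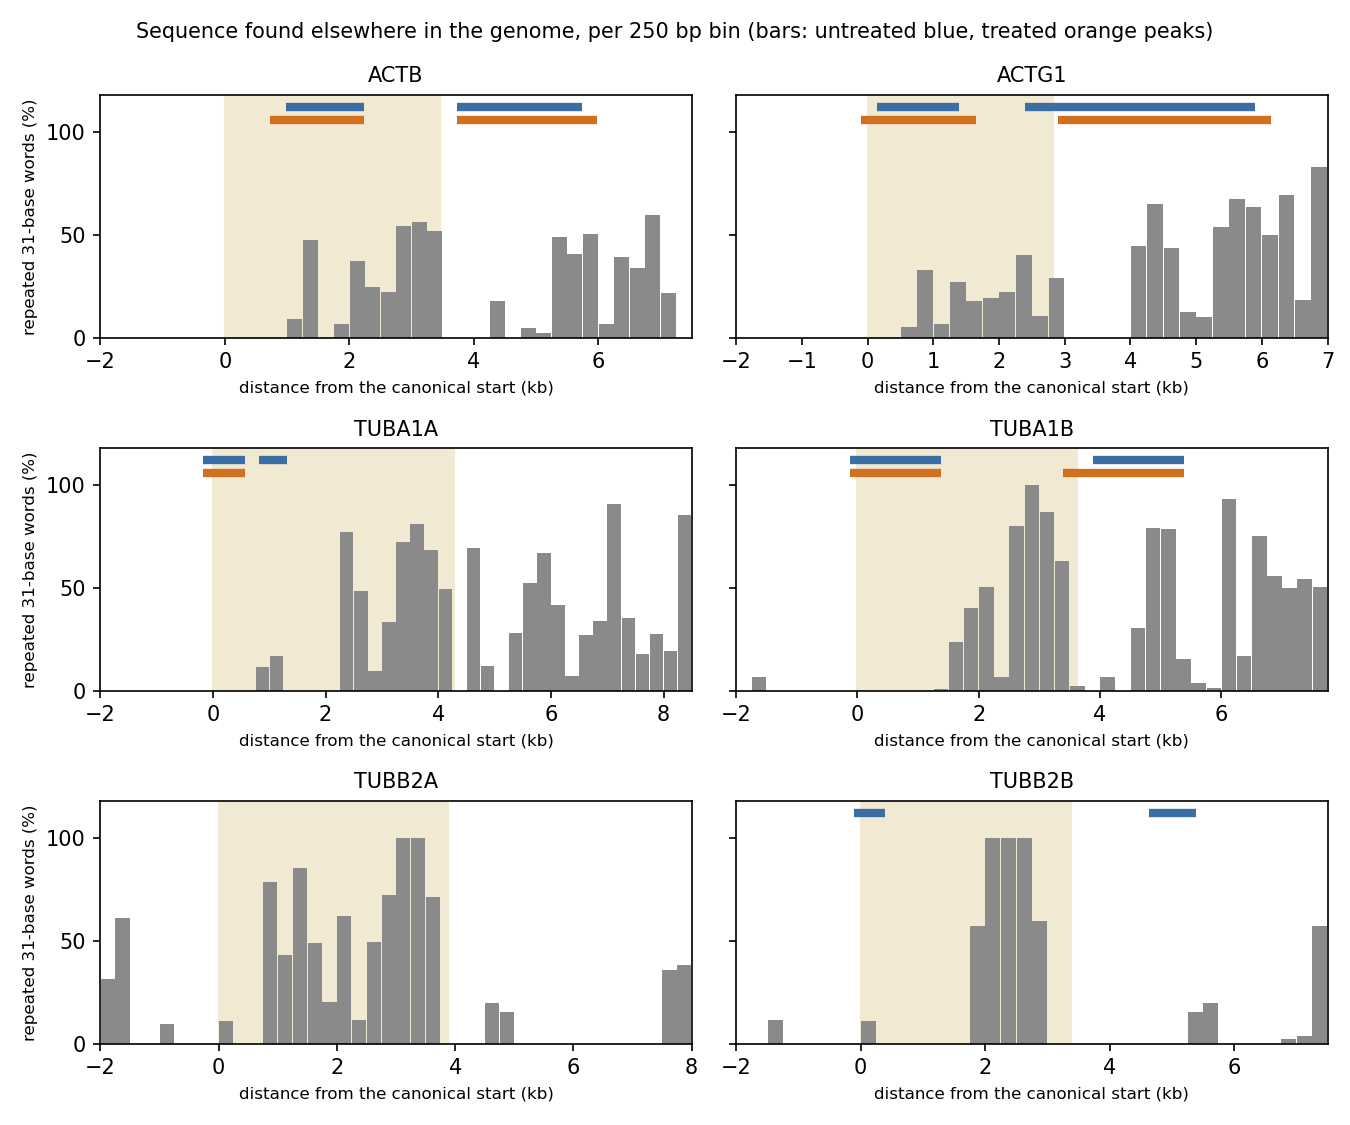
Percentage of 31-base words that occur elsewhere in the genome, in bins of 250 bp, by distance in kb from the canonical start, for 6 of the genes. The shaded span is the canonical transcript, and blue and orange lines above the bins are the untreated and treated sense peaks. Bins in the last exons of TUBA1B, TUBB2A and TUBB2B reach 100%, and the start peaks of TUBA1A and TUBA1B sit over bins near 0.

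Annotated pseudogenes of the members, processed or not, were looked at for the same reason. Of the 65 annotated pseudogenes named after these actins and tubulins, 0 overlapped a peak in the untreated list and 1 in the treated list. That one, TUBBP9, was overlapped by a minus-strand peak of the treated list, chr6:39901751-39902500, while TUBBP9 lies on the plus strand. The peak met only the beginning of the long TUBBP9 record, chr6:39902334-39968266. The other 64 pseudogenes had no peak in either list. The share over all annotated pseudogenes was not computed.

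Genes that work with the actins and tubulins were counted from lists chosen with earlier results of these data known. Of 66 such genes, 41 and 47 had a peak in their window in the untreated and treated list, against 45.8% and 48.1% of all protein-coding genes. A peak at the start was found at 26 and 32, 22 of them in both lists, against 25.3% and 27.9% of all genes, which is also the share beside which the counts of each list below are to be read. Sense peaks in the 5000 bp past the end were found at 19 in each list, against 16.6% and 17%. The chaperonin TRiC, which folds newly made actin and tubulin, had start peaks at 8 and 7 of its 8 genes, and CCT8 was the gene with such a peak in the untreated list only. CCT5 had the most, with facing peaks of 750 bp on either strand in the untreated list and of 500 and 1000 bp in the treated list. Of the 17 other actin and tubulin genes, many of which encode forms of muscle, neurons or testis, 1 and 3 had start peaks. TUBD1, the δ-tubulin gene, had facing peaks of 500 bp in both lists, whereas the skeletal muscle actin gene ACTA1, with 1250 bp, and the γ-tubulin gene TUBG2, with 500 bp, had one in the treated list only.

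The remaining lists lay between these. Prefoldin, which delivers unfolded actin and tubulin to TRiC, had start peaks at 2 and 3 of 6 genes, and PFDN5 had the widest, 1500 and 1250 bp. PFDN1 had one in the treated list only. The tubulin folding cofactors had them at 4 and 2 of 5 genes, with TBCB and TBCC in the untreated list only and TBCE at 750 bp in both. The γ-tubulin complex, which works with TUBG1, had them at 4 and 7 of 9 genes, where TUBGCP4 was in the untreated list only and TUBGCP5, MZT2A, MZT2B and NEDD1 in the treated list only. MZT1 had facing peaks of 750 and 500 bp in both lists. The actin monomer binding and severing genes had them at 2 and 4 of 10, with CFL1 and CFL2 in the treated list only and TMSB4X at 750 bp in both. The Arp2/3 complex, which branches actin filaments, had them at 3 and 4 of 8 genes, with ARPC2 in the treated list only and facing peaks of 500 bp at ARPC4 in both. Of serum response factor and its cofactors 2 of 3 had start peaks in each list, and MRTFA, a cofactor that binds actin monomers, had a sense peak of 500 bp in both.

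Genes with peaks most like those of ACTB, ACTG1 and TUBB were found from the overlap of covered bases from 2000 bp before to 5000 bp past the canonical start, per strand and list, as a Jaccard index. ACTG1 was most like RPL15 (0.714), EIF1 (0.684) and RPL10A (0.684), which encode ribosomal proteins and a translation initiation factor. ACTB, whose peak begins inside the gene, had lower values, 0.488 with ZC2HC1B, 0.475 with RPS13 and 0.457 with PPDPF. For TUBB the index, 0.982 with MIS12, 0.915 with APH1A and 0.9 with MANF, rested only on the first part of its peak at the end of the gene, which begins 4622 bp past the start and so lies at the edge of the window, and it is no likeness of peaks at the start, where TUBB had none. The index reads distance from the start and not the layout of each gene.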

How the data were processed

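spKAS-seq peak lists of untreated and N2-heptynyl-dG-treated HEK293T cells were used. Per the methods, reads passed Trim Galore, Bowtie2 (hg19 as the reference) and Picard for duplicates, and R-loops were identified by the authors with 2 replicates. The deposited lists hold chromosome, start, end and strand, in base pairs, with no other value, and each is attached to replicate 1 of its condition. Peak widths were multiples of 250 bp, apart from 6 untreated and 3 treated peaks. Signal per sample and the input libraries were not analysed here, and the depth behind a peak is unknown.

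Intervals were joined to GENCODE release 44 mapped to GRCh37 with Python 3.11.15, pandas 2.3.3 and NumPy 2.4.6, and sequences were aligned with Biopython 1.88. Peaks shared 1 bp or more, on either strand. Classes used the midpoint, within 1000 bp of the canonical start, then of the end. The code was tested on simulated data, where 600 of 600 planted peaks received their class and 200 of 200 planted partners were found. The planted peaks were narrow, lay clear of the class limits and sat in genes longer than most members. Flank classes and wide peaks that span both ends of a gene were therefore not tested. No test was made, since 1 list per condition was used. Members, lists and motifs were chosen with earlier results of these data known. Named genes were the 10 members, genes overlapped by their peaks, related genes with a start peak in 1 list or the most base pairs, pseudogenes under a peak and the 3 most alike genes for ACTB, ACTG1 and TUBB. The CArG box was searched by its consensus, and alternatives were the flank, the end windows, the overlap rule, assignment to the nearest gene and a minimum width.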

Additional observations from a re-analysis of the deposited data

How the results depend on the processing

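No paired analysis was possible because the values used here come from 1 interval list per condition, with no column per replicate. Each of 14 counts was recomputed under other flanks, end windows, overlap rules, nearest-gene assignment and a minimum width, and 55 of 66 values lay within 1.5 times the reported one. With the gene record alone, the covered length was 15165 bp in the untreated and 12857 bp in the treated list. With midpoints within 500 bp of the start, 3 genes had a start peak in each list, and the same number a sense one. In the untreated list, 6 genes had a peak at the end with midpoints within 2000 bp, 5 with any overlap of the 1000 bp window and 6 with the ends of the gene record. With 90% reciprocal overlap, 4 peaks were shared in each list. The shares of all genes and of the whole lists under these alternatives were not computed. The lists give no heights or depth, so a border that differs by 250 bp is 1 step of peak width and carries no error. The signal under the peaks was not analysed here.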
